A study of Mus musculus with 8 samples.

Results

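The genes described are 10 components of MHC class I antigen presentation: the heavy chains *H2-K1*, *H2-D1* and *H2-T23*, the light chain *B2m*, the peptide transporter and loading genes *Tap1*, *Tap2* and *Tapbp*, and the immunoproteasome subunits *Psmb8*, *Psmb9* and *Psmb10*. They were taken by name from a table of 14506 genes, in which all 10 were listed, and all 10 were among the 11174 genes tested, those with a mean of at least 10 normalized counts over the livers. *H2-T23* and *Tap2* reached that mean mainly through the RragcS74N/+ livers. RNA was sequenced from whole livers of 8 mice, 4 Rragc+/+ and 4 RragcS74N/+, to compare the transcriptomes of the genotypes while the mice were young. *Rragc* encodes RagC, a GTPase that relays nutrient sufficiency to the kinase complex mTORC1. The RragcS74N/+ mice carry, in every cell and on 1 of the alleles, a knock-in of an activating substitution made by CRISPR editing. Of the Rragc+/+ mice, replicates 1, 2 and 3 were 3 months old and replicate 4 was 2.5 months old. Of the RragcS74N/+ mice, replicates 1 and 2 were 3 months old, replicate 3 was 2.5 months old and replicate 4 was 2 months old. No treatment is labelled for these mice.

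MHC class I molecules display peptides from inside the cell to CD8+ T cells and natural killer cells. The proteasome cuts proteins into peptides, the TAP transporter carries these into the endoplasmic reticulum, and tapasin holds an empty heavy chain with beta-2-microglobulin next to the transporter until a peptide binds. Interferon gamma raises transcription of these genes in most cells and swaps catalytic subunits of the proteasome for those of the immunoproteasome. Hepatocytes, Kupffer cells, endothelial cells and leukocytes of the liver all carry class I, so that in RNA of whole liver a change in the number of cells of a type and a change in RNA per cell cannot be told apart.

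None of the 10 genes passed an adjusted p of 0.05 between genotypes in the limma fit over all tested genes. At an unadjusted p under 0.05 there were 2 of the 10, *Tap2* and *Psmb9*, both higher in RragcS74N/+, where 5.17% of all tested genes reached that level (2.37% higher and 2.80% lower). The same 2 genes, and no adjusted call among the 10, were found with edgeR and with DESeq2, in which 5.53% and 6.04% of all tested genes reached the unadjusted level. Over all tested genes 1 gene (0.00895%) passed the adjusted threshold with limma, 1 with edgeR and 10 (0.0895%) with DESeq2. The log2 fold change was above 0 for 7 of the 10 genes, against 51.3% of all tested genes, and its median was 0.46 for the 10 genes and 0.01 for all tested genes. *H2-T23* and *Tap2* are over the filter only through the genotype where they are high, and these counts lean on them. Of the other 8 genes, 1 (*Psmb9*) had an unadjusted p under 0.05 and 5 had a fold change above 0, with a median of 0.26. In no member did the livers of the genotypes separate without overlap, which 2.94% of tested genes did (1.30% higher and 1.64% lower in RragcS74N/+).

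The libraries held between 4313076 reads (Rragc+/+ replicate 3) and 6632108 reads in listed genes. *Rragc*, the edited gene, measured 84.1 ± 20.4 normalized counts in Rragc+/+ and 76.6 ± 7.32 in RragcS74N/+ (SD, n = 4 each, limma adjusted p = 0.931), and since the edit changes bases within the transcript its level is no check of the labels. Hepatocyte markers were abundant in every liver, with a summed level of at least 272169 normalized counts. Here and below a normalized count is a read count divided by the size factor of its library, and fold changes are differences of log2(normalized count + 1), a scale that understates changes of genes with few reads.

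Of the 10 genes, 8 lie in or beside the major histocompatibility complex on chromosome 17 (GRCm38, GENCODE M21), within 2.12 megabases. *Tapbp* is at chr17:33915899-33929292 on the forward strand, *H2-K1* at chr17:33996017-34000347 on the reverse strand, *H2-D1* at chr17:35262730-35267499 on the forward strand and *H2-T23* at chr17:36029773-36032855 on the reverse strand. Between them *Psmb9* (chr17:34181987-34187764, reverse), *Tap1* (chr17:34187553-34197225, forward), *Psmb8* (chr17:34197721-34201454, forward) and *Tap2* (chr17:34203527-34216321, forward) stand side by side. The models of *Psmb9* and *Tap1* overlap by 212 bases on opposite strands, and *Psmb8* begins 495 bases after the end of *Tap1*. *B2m* is apart from them at chr2:122147686-122153083 (forward), and *Psmb10* at chr8:105935735-105938444 (reverse).

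The promoters of *H2-K1* and *B2m*, the chains of 1 complex, are shown because these well-counted genes differed several-fold between livers of the same genotype. Sequences are from RefSeq (GRCm38.p6), 5′ to 3′ on the strand of the gene, from 160 to 11 bases before the start site, and capitals mark every match on either strand to the motifs sought, which were the core of the interferon-stimulated response element, or ISRE (GAAA and GAAA with 2 bases of any kind between them), TTCNNNGAA (the interferon gamma activated site, or GAS), kappa B (GGG and TTCCC with 2 bases of any kind between them), TGACG (a part of the CRE, as in the X2 box) and CCAAT (the Y box, ATTGG on the other strand).
*H2-K1* (chr17:34000358-34000507, reverse strand): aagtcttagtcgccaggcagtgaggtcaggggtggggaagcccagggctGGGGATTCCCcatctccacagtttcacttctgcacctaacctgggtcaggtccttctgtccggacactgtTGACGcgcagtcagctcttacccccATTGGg
*B2m* (chr2:122147527-122147676, forward strand): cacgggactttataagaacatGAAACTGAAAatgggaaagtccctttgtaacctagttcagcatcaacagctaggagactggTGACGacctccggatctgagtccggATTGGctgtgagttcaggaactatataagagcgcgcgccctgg

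The kappa B match of *H2-K1* has a close counterpart before *H2-D1*, shown as the 30 bases around it.
*H2-K1* (chr17:34000439-34000468, reverse strand): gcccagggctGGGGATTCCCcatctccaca
*H2-D1* (chr17:35262913-35262942, forward strand): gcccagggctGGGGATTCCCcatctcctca
These stretches shared 29 of 30 bases, and the 100 bases that run from the kappa B match of each gene shared 89 bases. From the first base of the kappa B match to that of TGACG were 70 bases in both genes, and from there to the Y box match 25 bases in both. In the 250 bases before the start site, searched on both strands, the kappa B pattern was found in 2 of the 9 members with a RefSeq window (*H2-K1* and *H2-D1*) and in 1.53% of 32851 windows of all genes. The ISRE core was found in *B2m* and *H2-T23* (2.98% of all windows) and the GAS pattern in *Psmb8* (7.02%). TGACG was found in 5 of the 9 (*H2-K1*, *H2-D1*, *B2m*, *Tap1* and *Psmb9*, against 17.8% of windows) and CCAAT in 7 (those 5 with *H2-T23* and *Tapbp*, against 33.8%). *Tap1* and *Psmb9* are read in opposite directions from a common promoter, and their TGACG and CCAAT matches are the same sites counted for both genes. A match is a run of letters and was not measured as a binding site. Sites that differ from a pattern by a base were not sought, so the lack of a match is no sign that an element is absent.

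The classical heavy chains *H2-K1* and *H2-D1*, which bind peptides for CD8+ T cells, had higher means in RragcS74N/+ with wide overlap. *H2-K1* measured 2565, 3872, 3398 and 1272 normalized counts in Rragc+/+ replicates 1 to 4 and 6422, 3892, 1640 and 6145 in RragcS74N/+ replicates 1 to 4. RragcS74N/+ replicates 1 and 4 were above every Rragc+/+ liver, replicate 2 stood level with the highest Rragc+/+ liver, and replicate 3 was below 3 of the 4 Rragc+/+ livers. Means were 2777 ± 1139 and 4525 ± 2232 (SD, n = 4 each), a ratio of 1.63, with a log2 fold change of 0.64 (SE 0.43, 95% interval -0.29 to 1.56, limma adjusted p = 0.846). Relabelling the livers often gave a mean log2 difference at least as large (two-sided exact permutation test over 70 labellings, p = 0.257).

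*H2-D1* ordered the livers much as *H2-K1* did. Its normalized counts were 788, 1013, 1417 and 384 in Rragc+/+ and 2140, 1179, 548 and 2234 in RragcS74N/+. As before, replicates 1 and 4 of RragcS74N/+ were the highest of the 8 livers, and the lowest liver of each genotype was the 2.5-month-old one. Means were 900.5 ± 432 and 1525 ± 807, with a log2 fold change of 0.71 (SE 0.45, 95% interval -0.27 to 1.68, limma adjusted p = 0.846, exact permutation p = 0.286). How reads that align to both genes, or to other class I genes of like sequence, were counted is not stated. The level of these heavy chains and the split between them are therefore uncertain.

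*H2-T23* encodes Qa-1, a nonclassical heavy chain that presents leader peptides of other class I molecules to the receptors of natural killer cells. It was close to the limit of the libraries, with 15, 2, 0 and 1 reads in Rragc+/+ and 14, 10, 1 and 52 reads in RragcS74N/+. In normalized counts these were 14.0, 1.87, 0 and 0.934 against 12.9, 8.89, 1.11 and 42.4, so that a single RragcS74N/+ liver, replicate 4, held most of the reads of its group. In Rragc+/+ replicate 3, where none was counted, a count of 0 allows up to 3 reads or 4.24 normalized counts. The log2 fold change of 1.81 had a standard error of 1.10 (95% interval -0.58 to 4.2, limma adjusted p = 0.846) and ranged from 1.05 to 2.76 over the other settings. Reads pooled by genotype were 18 and 77, a ratio after scaling of 3.87 with an exact 95% interval of 2.29 to 6.86, which covers counting error only and not the spread between mice.

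*B2m*, the light chain shared by all these heavy chains, was among the most abundant transcripts of the liver and did not differ detectably by genotype. Its normalized counts were 19646, 22305, 36733 and 11494 in Rragc+/+ and 33122, 26983, 14722 and 27759 in RragcS74N/+. The highest liver of all was Rragc+/+ replicate 3, and the lowest of each genotype was again the 2.5-month-old mouse. Means were 22545 ± 10518 and 25647 ± 7778, with a log2 fold change of 0.25 (SE 0.35, 95% interval -0.51 to 1.003, limma adjusted p = 0.886) and an exact permutation p of 0.60. Without Rragc+/+ replicate 4 the fold change was -0.04.

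**Figure D1:**
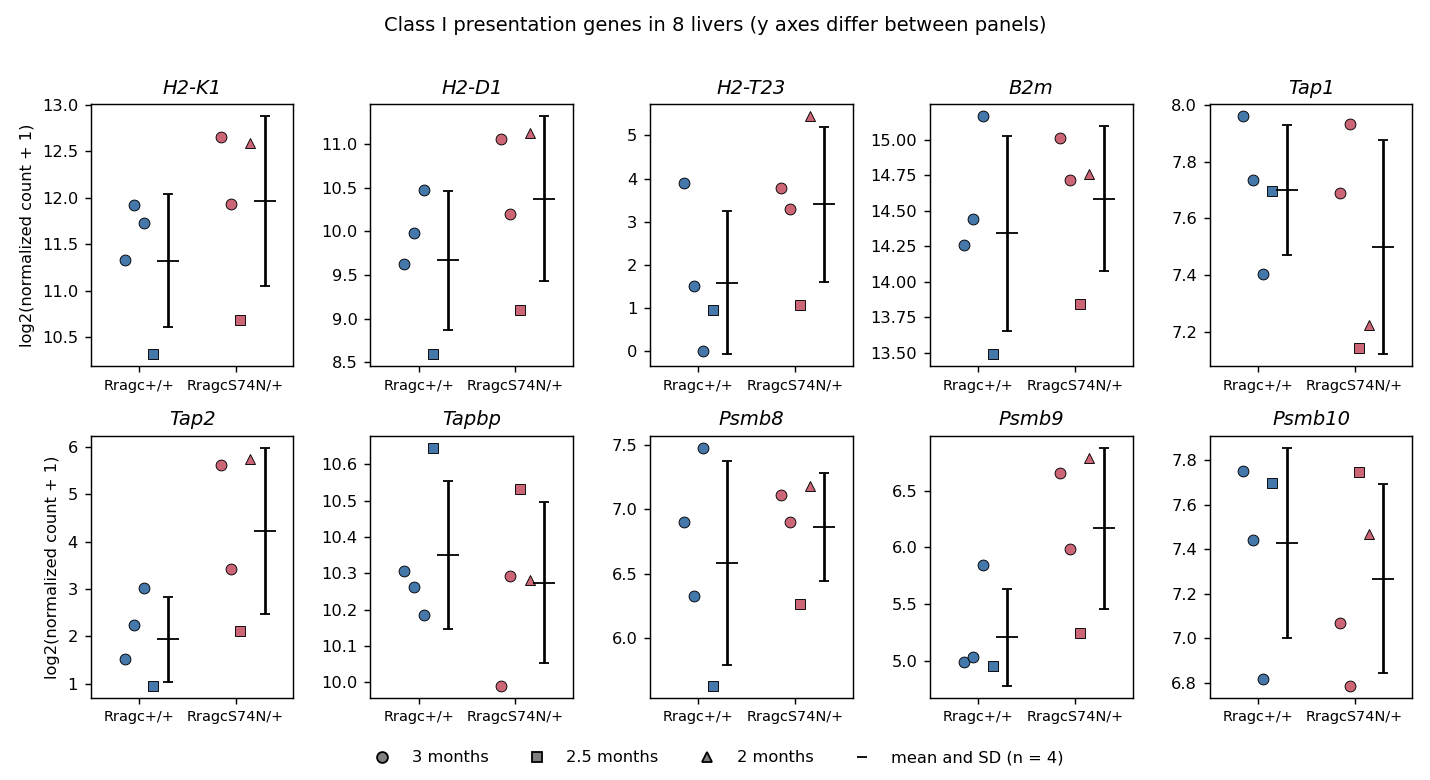
Level of each of the 10 class I genes in each liver, as log2(normalized count + 1) on the y axis with a scale of its own in each panel; circles are 3-month-old, squares 2.5-month-old and triangles 2-month-old mice, and the black bars are the mean and SD of 4 livers. In *H2-K1*, *H2-D1*, *B2m*, *Tap2*, *Psmb8* and *Psmb9* the square is the lowest point of both genotypes, whereas in *Tapbp* it is the highest of both, and the genotypes overlap in every panel.

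The transporter that supplies these chains is a pair of proteins, TAP1 and TAP2, and their transcripts differed in pattern. *Tap2* gave few reads, 2, 4, 5 and 1 in Rragc+/+ and 52, 11, 3 and 64 in RragcS74N/+, which are 1.86, 3.74, 7.07 and 0.934 against 47.7, 9.78, 3.34 and 52.2 normalized counts. RragcS74N/+ replicates 1, 2 and 4 were above every Rragc+/+ liver, and replicate 3, the 2.5-month-old one, was below Rragc+/+ replicates 2 and 3. The fold change was 2.29 on the log2 scale (SE 0.88, 95% interval 0.39 to 4.19), with an unadjusted limma p of 0.0219, an adjusted p of 0.846 and an exact permutation p of 0.0857. Means were 3.40 ± 2.71 and 28.3 ± 25.3 normalized counts. The 12 and 130 reads pooled by genotype gave a scaled ratio of 9.79 (exact 95% interval 5.42 to 19.4). That interval covers counting error only and not the spread between mice, and RragcS74N/+ replicates 1 and 4 held most of the 130 reads. *Tap2* is over the filter only through the RragcS74N/+ livers, so its fold change and p-values lean on that choice. Without RragcS74N/+ replicate 1 or without replicate 4 the unadjusted p was no longer under 0.05.

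*Tap1* measured 248, 212, 168 and 206 normalized counts in Rragc+/+ and 206, 244, 140 and 148 in RragcS74N/+. The livers with the highest *Tap2*, RragcS74N/+ replicates 1 and 4, were not high for *Tap1*, and the genotypes overlapped over most of their range. Its log2 fold change was -0.20 (SE 0.24, 95% interval -0.72 to 0.31, limma adjusted p = 0.871), from means of 208.8 ± 32.6 and 184.5 ± 48.9 (exact permutation p = 0.343). In the 3-month-old mice alone it was 0.11.

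*Tapbp* encodes tapasin, which bridges the transporter and the empty class I molecule. Its normalized counts were 1265, 1228, 1164 and 1600 in Rragc+/+ and 1016, 1252, 1480 and 1244 in RragcS74N/+. The order of the livers was close to the reverse of that of the heavy chains, with the 2.5-month-old liver the highest of both genotypes and RragcS74N/+ replicate 1 the lowest of all. Means were 1314 ± 195 and 1248 ± 189, with a log2 fold change of -0.08 (SE 0.19, 95% interval -0.49 to 0.34, limma adjusted p = 0.939), so that a genotype difference in *Tapbp* of more than 0.49 on the log2 scale lay outside the interval. This gene varied least of the 10 within genotypes.

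*Psmb9* encodes LMP2, the immunoproteasome subunit that takes the place of the constitutive subunit encoded by *Psmb6*. It measured 30.8, 31.8, 56.6 and 29.9 normalized counts in Rragc+/+ and 100.1, 62.2, 36.8 and 109 in RragcS74N/+. RragcS74N/+ replicates 1, 2 and 4 were above every Rragc+/+ liver, and replicate 3 was above 3 of the 4, all but Rragc+/+ replicate 3. The mean was 37.3 ± 12.9 in Rragc+/+ and 77.1 ± 33.7 in RragcS74N/+, a ratio of 2.07. Between genotypes the log2 fold change was 0.96 (SE 0.37, 95% interval 0.16 to 1.77), with an unadjusted limma p of 0.0229, an adjusted p of 0.846 and an exact permutation p of 0.0571, where the smallest p that 70 labellings can give is 0.0286. The unadjusted p was no longer under 0.05 without any 1 of Rragc+/+ replicates 1, 2 and 4 and RragcS74N/+ replicates 1 and 4.

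*Psmb8* encodes LMP7, the counterpart of *Psmb5*. Its normalized counts were 118, 79.5, 177 and 48.6 in Rragc+/+ and 137, 118, 75.8 and 144 in RragcS74N/+. The Rragc+/+ livers held both the highest and the lowest value, and the RragcS74N/+ livers lay between them. The log2 fold change was 0.28 (SE 0.37, 95% interval -0.51 to 1.07, limma adjusted p = 0.875), from means of 106 ± 55.3 and 119 ± 30.5 (exact permutation p = 0.60), and it was -0.04 without Rragc+/+ replicate 4.

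*Psmb10* encodes MECL-1, the counterpart of *Psmb7*. It measured 214, 173, 112 and 206 normalized counts in Rragc+/+ and 133, 109, 214 and 176 in RragcS74N/+. Livers high for *Psmb9* were not high here, and RragcS74N/+ replicate 3, the lowest of its group for *Psmb8* and *Psmb9*, was the highest for *Psmb10*. The log2 fold change was -0.16 (SE 0.28, 95% interval -0.76 to 0.45, limma adjusted p = 0.907), from means of 176 ± 46.7 and 158 ± 46.4 (exact permutation p = 0.657).

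**Figure D2:**
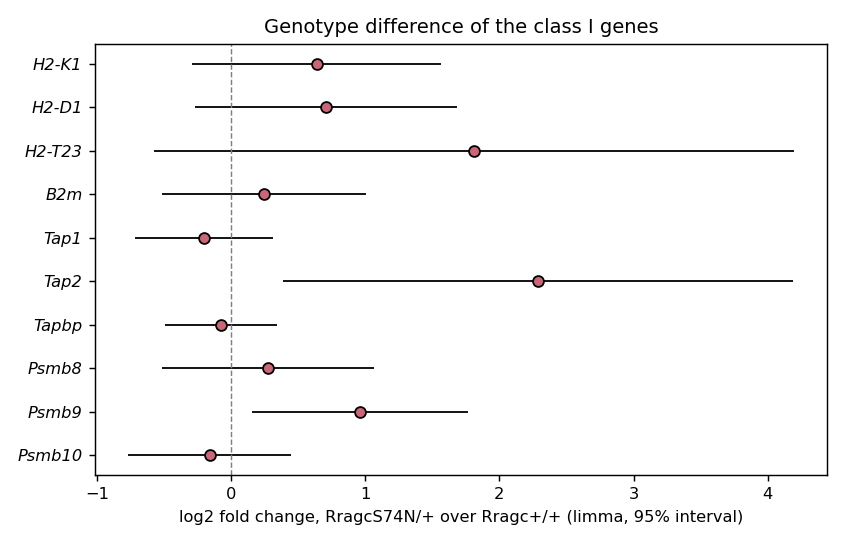
Genotype difference of each gene on the x axis, as the limma log2 fold change of RragcS74N/+ over Rragc+/+ with its 95% interval, 4 livers each. The intervals of *Tap2* (0.39 to 4.19) and *Psmb9* (0.16 to 1.77) lie above 0 before adjustment over all tested genes, and those of the other 8 genes include 0. *H2-T23* and *Tap2* are over the filter only through the RragcS74N/+ livers.

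Each immunoproteasome subunit was also set against the constitutive subunit it replaces, within each liver. The ratio of *Psmb9* to *Psmb6*, both as normalized count + 1, was 0.0280, 0.0361, 0.0776 and 0.0303 in Rragc+/+ and 0.134, 0.0709, 0.0308 and 0.165 in RragcS74N/+. RragcS74N/+ replicates 1 and 4 were above all Rragc+/+ livers, replicate 2 was below Rragc+/+ replicate 3, and replicate 3 was level with the lower Rragc+/+ livers. On the log2 scale the mean ratio was -4.67 ± 0.67 in Rragc+/+ and -3.58 ± 1.09 in RragcS74N/+, a difference of 1.09 (two-sided exact permutation p = 0.171, adjusted over the 3 ratios 0.514). For *Psmb8* to *Psmb5* the log2 ratio was -3.07 ± 0.84 and -2.75 ± 0.48 (difference 0.32, exact permutation p = 0.486, adjusted 0.514). *Psmb10* to *Psmb7* gave -1.002 ± 0.73 and -1.31 ± 0.57, a difference in the opposite direction of -0.31 (exact permutation p = 0.514, adjusted 0.514). No difference was detectable, but a single differing ratio could not have reached an adjusted p below 0.0857 in this design. With 1 liver left out the difference ranged from 0.76 to 1.56 for *Psmb9* to *Psmb6*, from 0.032 to 0.67 for *Psmb8* to *Psmb5* and from -0.67 to -0.13 for *Psmb10* to *Psmb7*. The library kit reads only the 3′ end of a messenger RNA, so counts are not scaled by length and a ratio of 2 genes is read here only between livers.

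**Figure D3:**
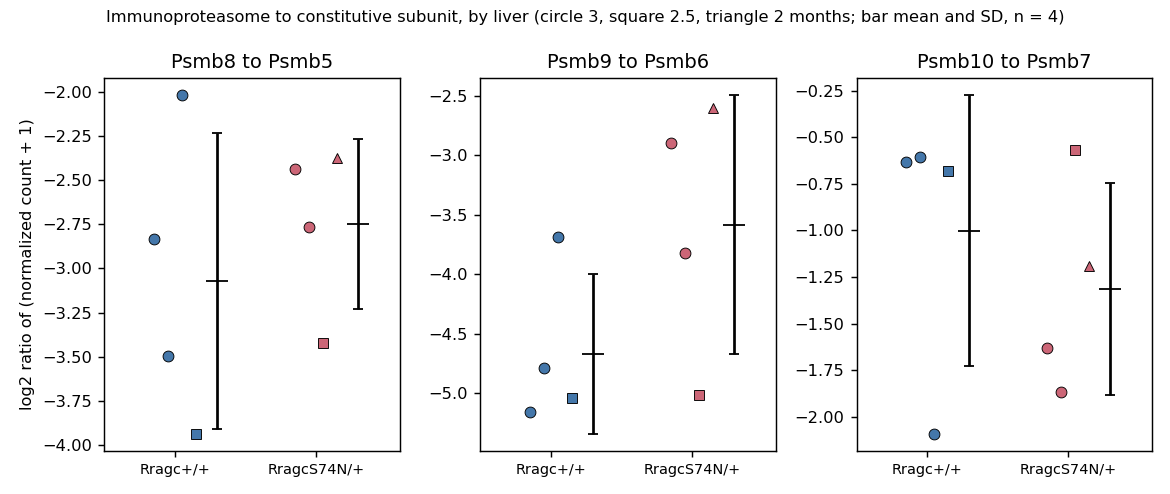
Log2 ratio of each immunoproteasome subunit to its constitutive counterpart in each liver, with circles, squares and triangles for mice of 3, 2.5 and 2 months and bars for the mean and SD of 4 livers. The genotypes overlap in all 3 panels, and for *Psmb10* to *Psmb7* the Rragc+/+ liver at -2.09 stands apart from the other 3, which lie between -0.68 and -0.61.

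The spread between mice of 1 genotype was the main feature of the heavy chains. Within genotypes *H2-K1* had an SD of 0.82 on the log2 scale, where the median of 287 tested genes of similar mean level was 0.35 and 94.8% of them had a lower SD. For *H2-D1* the SD was 0.88 against a median of 0.31, above 96.9% of 862 genes, and for *B2m* it was 0.61 against 0.36, above 82.8% of only 29 genes. *Tapbp* was the opposite, with an SD of 0.21 against a median of 0.32. From the lowest to the highest liver *H2-K1* covered a 5.05-fold range and *H2-D1* a 5.82-fold range, and *Tapbp* covered 1.58-fold.

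The age of the mice moved with this spread. The 2.5-month-old liver was the lowest of its group in both genotypes for 6 of the 10 genes (*H2-K1*, *H2-D1*, *B2m*, *Tap2*, *Psmb8* and *Psmb9*), as it was for 16.0% of all tested genes, and the highest in both for 1, *Tapbp* (15.1% of tested genes). The 2-month-old RragcS74N/+ liver was the highest of its group for 5 of the 10, against 23.8% of tested genes. The order of levels by age therefore does not run one way, and with 1 mouse per genotype at 2.5 months and 1 in all at 2 months, age and the individual mouse cannot be told apart. This order was noticed in the values and is given without a test.

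Genotype differences had the same sign at 3 and at 2.5 months for most of the 10 genes, and the share of all tested genes that did so was not computed. Among 3-month-old mice the log2 difference of RragcS74N/+ over Rragc+/+ was 0.63 for *H2-K1*, 0.61 for *H2-D1*, 2.26 for *Tap2* and 1.03 for *Psmb9*, and between the single 2.5-month-old mice it was 0.37, 0.51, 1.17 and 0.29. *Tap1* (0.11 and -0.55) and *Psmb10* (-0.41 and 0.05) differed in sign between the ages. In the 3-month-old mice alone, 2 against 3 livers, the genotypes did not overlap for *H2-K1*, *Tap2* and *Psmb9*, which held for 21.6% of all tested genes. Leaving out the 2.5-month-old mice, an alternative chosen after seeing these values, gave the same 3 genes against 15.3% of tested genes. In that setting 5 of the 10 genes had an unadjusted p under 0.05 (*H2-K1*, *H2-D1*, *H2-T23*, *Tap2* and *Psmb9*), beside 10.7% of all tested genes, and none passed the adjusted threshold. Of these, *H2-T23* and *Tap2* are over the filter only through the genotype where they are high.

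Over the 8 livers the 10 genes did not move as a single group. Each gene was standardized over the livers (z score of its log2 value), and its Pearson correlation with the mean z score of the other 9 genes is given as a description, since all points share the same 8 libraries. The correlation was 0.90 for both *H2-K1* and *H2-D1*, 0.85 for *Tap2*, 0.81 for *Psmb9*, 0.72 for *H2-T23* and 0.67 for both *Psmb8* and *B2m*. It was -0.19 for *Tap1*, -0.58 for *Psmb10* and -0.84 for *Tapbp*. The mean z score of all 10 genes was lowest in the 2.5-month-old livers, at -0.69 in Rragc+/+ replicate 4 and -0.53 in RragcS74N/+ replicate 3, and highest in RragcS74N/+ replicates 4 (0.71) and 1 (0.54).

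The 10 other tested genes with the most similar pattern were *Emc4* (r = 0.993 over 8 livers), *Fga* (0.979), *Prkag2* (0.977), *Mtmr14* (0.974), *H2-Q7* (0.973), *Nsmaf* (0.971), *Spg21* (0.968), *Ctnnb1* (0.966), *Pdlim1* (0.963) and *Ciao2a* (0.963). *H2-Q7* is a further class I heavy chain gene and *Fga* encodes the fibrinogen alpha chain, a plasma protein made by hepatocytes. They were picked as the highest of all tested genes over 8 points, so the size of r is a consequence of the choice.

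**Figure D4:**
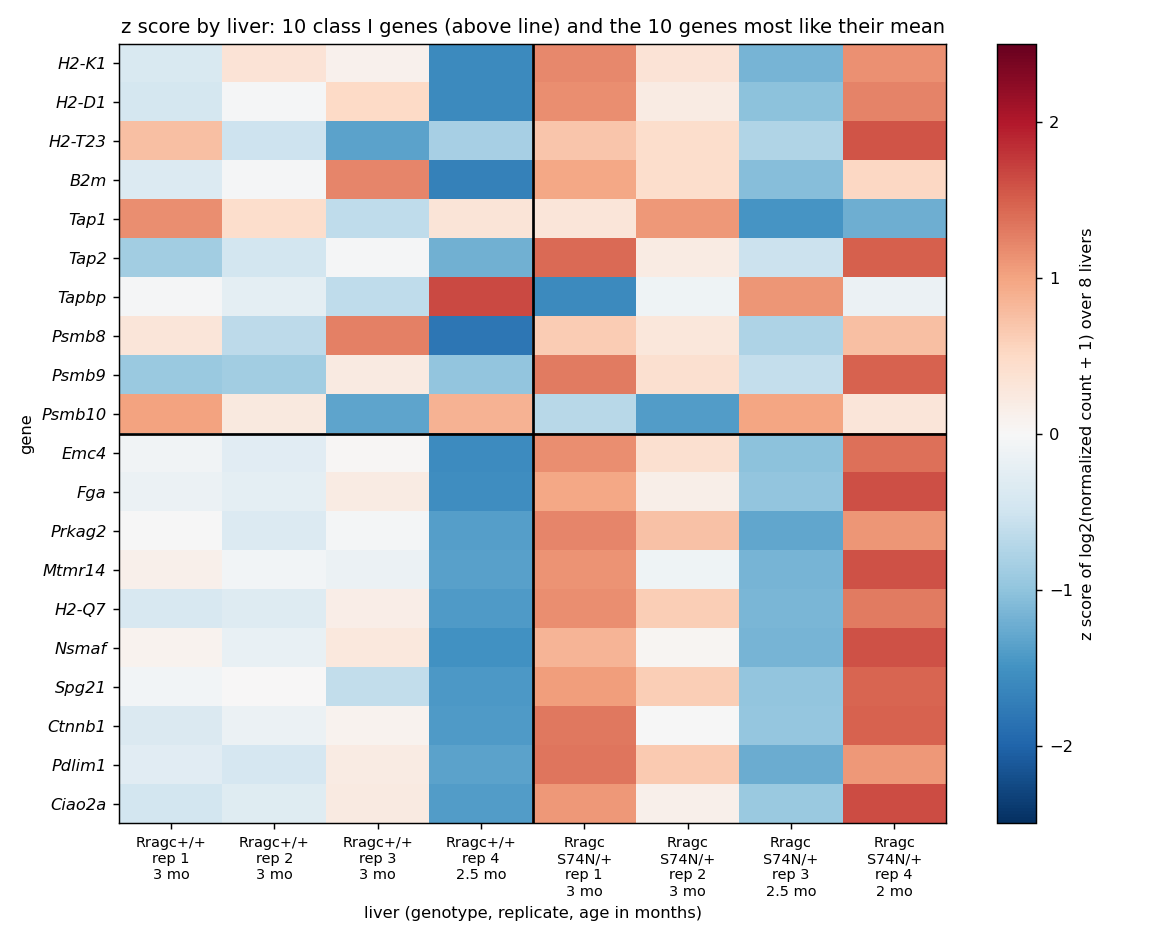
Heat map of z scores of log2(normalized count + 1) over the 8 livers, with the 10 class I genes above the horizontal line, the 10 genes most like their mean below it, Rragc+/+ livers to the left of the vertical line and RragcS74N/+ livers to the right. The 2.5-month-old livers (Rragc+/+ replicate 4 and RragcS74N/+ replicate 3) are blue, that is low, for the heavy chains and red for *Tapbp* and *Psmb10*.

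Other genes of the pathway were read from the same fit, by lists, and none of their members passed the adjusted threshold. For comparison, 51.3% of all tested genes had a fold change above 0. Of 22 further class I and class I-like heavy chains 14 were listed and 10 tested, with 8 fold changes above 0, 2 below, none at an unadjusted p under 0.05, and a median of 0.30. The largest each way were *H2-Q7* (164 ± 71.3 against 387 ± 220 normalized counts, log2 fold change 1.06, unadjusted p = 0.0602) and *Mr1*, which presents vitamin metabolites to innate-like T cells (16.4 ± 3.52 against 8.84 ± 8.08, log2 fold change -1.28, unadjusted p = 0.0912). All 12 genes of peptide trimming and loading were tested, 4 above and 8 below 0 with a median of -0.05, from *Lnpep* (0.29), an aminopeptidase, to *Tapbpl* (-0.32), which encodes a tapasin-related peptide editor.

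Proteasome activators and the assembly factor *Pomp* gave 1 fold change above 0 and 4 below among 5 tested of 6, with a median of -0.09. *Psme2*, a subunit of the interferon-inducible PA28 activator, measured 41.9 ± 29.5 and 76.9 ± 62.0 normalized counts (log2 fold change 0.73, unadjusted p = 0.290), and the lowest was *Psme3* at -0.14. The constitutive catalytic subunits were close to level, at 0.15 for *Psmb7*, -0.04 for *Psmb5* and -0.12 for *Psmb6*.

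Transcription factors of class I genes and the interferon receptors and kinases gave 12 fold changes above and 11 below 0 among 23 tested of 24, with a median of 0.04. The 1 gene at an unadjusted p under 0.05 was *Irf8*, an interferon regulatory factor of myeloid cells, at 68.0 ± 17.4 and 117 ± 28.7 normalized counts (log2 fold change 0.77, unadjusted p = 0.0132). *Nlrc5*, the coactivator that directs transcription of class I genes, measured 39.5 ± 12.3 and 23.1 ± 5.66 (log2 fold change -0.72, unadjusted p = 0.0637). Of 24 tested interferon-stimulated genes of a list of 28, 20 had fold changes above 0 and 4 below, with a median of 0.43, and 4 had an unadjusted p under 0.05. These were *Rtp4* (0.96, unadjusted limma p of 0.00285) and *Oasl2* (1.20, unadjusted limma p of 0.00577), whose genotypes did not overlap, *Ifi27* (0.87, 0.0150) and *Igtp* (0.68, 0.0309). Over all tested genes 51.3% of fold changes were above 0, and 2.37% of genes were higher at an unadjusted p under 0.05. Another 2.80% were lower at that level, and 1.30% were higher without overlap.

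Markers of cell types were read from the same fit, and their part in the results was not tested. Pan-leukocyte markers had fold changes above 0 for 9 of 10, with *Ptprc*, *Cd53* and *Tyrobp* at an unadjusted p under 0.05, and a summed level of 685.7 to 783.7 normalized counts in Rragc+/+ and 748.9 to 1182 in RragcS74N/+. Over all tested genes 51.3% were above 0, and 2.37% were higher at an unadjusted p under 0.05. Hepatocyte markers were above 0 for 9 of 10 with none at an unadjusted p under 0.05, and summed to 272169 to 405128 and 296779 to 515476. In both of these lists the liver with the lowest sum in each genotype was the 2.5-month-old one. The same held for the sums of the stellate cell, cholangiocyte, further class I and proteasome activator lists. It did not hold for the Kupffer cell, T and NK cell, B cell, neutrophil and monocyte, endothelial or remaining pathway lists. The list of transcription factors and interferon signaling had its highest sum at 2.5 months in both genotypes (5643 in Rragc+/+ and 6293 in RragcS74N/+). Taken singly, 5 of the 10 hepatocyte markers, *Alb* among them, and 2 of the 10 pan-leukocyte markers (*Fcer1g* and *Lcp1*) had their lowest value at 2.5 months in both genotypes. The share of all tested genes with that order was 16.0%, so the pan-leukocyte count is near it. *Alb*, the albumin gene, measured 68581, 72360, 166784 and 57178 normalized counts in Rragc+/+ and 134887, 137256, 80712 and 252840 in RragcS74N/+.

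Kupffer cell markers gave 6 fold changes above and 5 below 0 of 11, with *Adgre1* and *C1qc* higher and *Cd163* lower at an unadjusted p under 0.05, and sums of 3157 to 4870 and 3091 to 5063. Of all tested genes 2.37% were higher and 2.80% lower at that level. Sinusoidal endothelial markers gave 6 of 10 above 0, with *Lyve1* and *Pecam1* higher at that level, and sums of 2328 to 3082 and 2345 to 2912. Sums overlapped also for T and NK cell markers (7 of 12 listed, 56.6 to 85.0 and 54.2 to 111), B cell markers (6 of 6, 456 to 817 and 364.5 to 649.7), neutrophil and monocyte markers (6 of 9, 58 to 157 and 61.3 to 119.9), stellate cell markers (8 of 8, 2338 to 2712 and 1974 to 2583) and cholangiocyte markers (5 of 6, 153 to 394 and 117 to 380). Among stellate cell markers *Col1a1* was higher (log2 fold change 0.96, unadjusted limma p of 0.0307) and *Ecm1* lower (-0.65, unadjusted limma p of 0.0114). In 2 stellate cell markers, *Ecm1* among them, and in *Cd163* the RragcS74N/+ livers were lower without overlap, as in 1.64% of all tested genes. No listed marker was at 0 in all livers.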

How the data were processed

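Libraries were made from total RNA of whole liver with a kit that reads the 3′ end of messenger RNA. After FastQC 0.11.7, the authors used TopHat2 2.0.10 with Bowtie 1.0.0 and SAMtools 0.1.19 for alignment to GRCm38, allowing reads with several alignments, counted reads by gene and strand with HTSeq 0.6.1 and scaled them with DESeq. The deposited signal is this normalized read count per gene and liver. Every value (100%, tolerance 1e-06) was a whole multiple of the step of its library, so reads were recovered, with size factors of 0.707 to 1.23. Intervals on reads cover counting error only, since no molecular identifiers are stated. No pair of livers agreed within sampling noise (chi-square per degree of freedom of at least 13.1 over 28 pairs). Each library is labelled as a mouse of its own, and numbers given to replicates are only names.

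The genotype test was limma 3.58.1 (R 4.3.3, mean-variance trend) on log2(normalized count + 1), with Benjamini-Hochberg adjustment over 11174 genes whose mean was 10 or more. The main test stayed on the deposited scale, and edgeR 4.0.16 (1 gene called) and DESeq2 1.42.0 (10 genes called) were run on recovered reads. Named genes are the 10 members, genes of fixed lists at an unadjusted p under 0.05 or else, for the pathway lists, their largest fold change each way, and the 10 genes of most similar pattern. *Nlrc5*, *Psmb5*, *Alb*, *Fcer1g* and *Lcp1* were named after their values were seen. The members and lists were chosen with earlier results of these data known. Scripts were tested on simulated data. Of the listed names, 14458 were found in GENCODE M21, a neighbouring release of the annotation used for counting. Alternatives were other pseudocounts (0.1 and 5), filters (none, or a mean of at least 50), rescaling, array weights, age as a term, 3-month-old mice alone and leaving out each liver.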

Additional observations from a re-analysis of the deposited data

Results flagged for a closer look

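Of 26 groups of 4 livers examined, 2 held a liver far from the other 3, where chance gives about 1 in 20 groups (1.3 expected). *Psmb9* on the log2(normalized count + 1) scale was 5.85 in Rragc+/+ replicate 3 and 4.95 to 5.04 in the other Rragc+/+ livers. The log2 ratio of *Psmb10* to *Psmb7* was -2.09 in the same liver and -0.68 to -0.61 in the others. Rragc+/+ replicate 3 had the fewest reads of all libraries (4313076), with 40 reads for *Psmb9* and 79 for *Psmb10*, and whether depth has a part in these values was not tested. Without this liver the genotypes did not overlap for *Psmb9*, which then held for 6.96% of tested genes.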

How the results depend on the processing

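No member passed an adjusted p of 0.05 under any of 14 other settings or without any 1 liver. The number of all tested genes past that threshold, 1 as reported, was 0 without the trend, 0 with age in months as a covariate, 3 with age as a factor, 0 in 3-month-old mice alone, 0 without the 2.5-month-old livers (added after seeing the data), 10 with DESeq2 and 0 to 2 with 1 liver left out. Members at an unadjusted p under 0.05, 2 as reported, were 1 at a mean of at least 50 (which *H2-T23* and *Tap2* did not reach), 4 with array weights and 4 with age as a factor (*H2-K1* and *H2-D1* added in both, beside 11.1% and 5.66% of all tested genes), 3 in 3-month-old mice alone (*H2-K1* added, beside 5.74%), 5 without the 2.5-month-old livers, and 0 to 5 with 1 liver left out: 0 without RragcS74N/+ replicate 1 or 4, 1 without Rragc+/+ replicate 2 or 4, 2 without Rragc+/+ replicate 1 (*H2-T23* and *Tap2*, not *Psmb9*), and 5 without RragcS74N/+ replicate 3, beside 15.1% of all tested genes. Members whose genotypes did not overlap, 0 as reported, were 3 in 3-month-old mice alone, 3 without the 2.5-month-old livers and 0 to 3 with 1 liver left out, 1 of them without Rragc+/+ replicate 3 and 3 without RragcS74N/+ replicate 3 (beside 12% of tested genes). The cause of these changes was not tested.

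The log2 fold change of *Tap1* reversed to 0.11 in 3-month-old mice alone. With 1 liver left out, those of *B2m* (-0.039 to 0.52), *Tapbp* (-0.16 to 0.022), *Psmb8* (-0.041 to 0.57) and *Psmb10* (-0.36 to 0.0013) crossed 0. Fold changes of *Tap2* (1.79 to 2.99), *Psmb9* (0.75 to 1.27), *H2-K1* (0.30 to 1.06), *H2-D1* (0.35 to 1.13) and *H2-T23* (1.13 to 2.58) stayed above 0. *H2-T23* and *Tap2* are over the filter, which was kept over all 8 livers, only through the RragcS74N/+ livers. The sign of these 2 genes therefore leans on the filter. Over the other settings *Tap2* ranged from 1.61 to 3.13 (adjusted p 0.167 to 0.891) and *Psmb9* from 0.81 to 1.18 (adjusted p 0.391 to 0.891). For the 3 subunit ratios, the exact test with fewer than 8 livers cannot reach an adjusted p of 0.05 for a single differing ratio, so its p-values say nothing about stability. No paired analysis was possible because numbers were given to mice in the order of the samples. Depth limits *H2-T23* and *Tap2*, with at most 64 reads in a liver.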
